A study of Drosophila melanogaster with 2 samples.

Results

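The Atg and Vps genes of Drosophila melanogaster were examined for promoter peaks of the zinc finger protein CG14711. They were chosen by symbol, as the protein-coding genes named Atg or Vps followed by a digit, which gave 47 of 13945 protein-coding genes, 20 Atg and 27 Vps. The chromatin came from whole adult females of a transgenic line with CG14711 fused at its carboxyl end to eGFP, and was precipitated with an antibody to GFP. The series has 1 group of 2 biological replicates, numbered 3 and 4, and no second condition. The age of the flies is given as unknown, the promoter driving the fusion is not given in the sources used here, and whole flies mix all tissues. Each peak carries a signal value of the authors, which ranks peaks within a list. It is on a scale of its own in each replicate's list, while the IDR and pooled lists share one scale.

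Autophagy encloses cytoplasm in a double membrane, the autophagosome, which then fuses with the lysosome. The Atg1 kinase complex starts the process, a class III phosphatidylinositol 3-kinase marks the membrane, Atg9 and Atg2 supply lipid, and ubiquitin-like conjugation attaches Atg8 to the membrane. The Vps genes are named after yeast mutants in vacuolar protein sorting. Their products include the ESCRT complexes that bud vesicles into endosomes, the retromer that recycles cargo out of endosomes, and the HOPS and CORVET tethers that bring endosomes, autophagosomes and lysosomes together. In the fly these routes are used throughout the body, among other places in the fat body and the ovary.

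A promoter peak was scored when the summit of a peak lay within 500 bp of a transcription start site (TSS) of the gene. The main list was the one thresholded by the irreproducible discovery rate (IDR), which ranks how well peaks repeat between replicates and holds 5654 peaks. Of the 47 genes, 25 had an IDR promoter peak (53.2%, 95% Wilson interval 39.2 to 66.7%), beside 30.6% of all protein-coding genes. Among Atg genes the count was 12 of 20 (60.0%, 38.7 to 78.1%) and among Vps genes 13 of 27 (48.1%, 30.7 to 66.0%), so the intervals of the families overlapped. The rule that chose the genes also named these peak lists, and their earlier results were known, so all counts are descriptions without a test. In the pooled list of 30000 peaks, called on both replicates together, 39 of 47 genes had a promoter peak (83.0%), beside 60.9% of all protein-coding genes. Among the 5654 strongest peaks of each replicate's own list, 25 genes had one in replicate 3 (53.2%, beside 29.4% of all) and 27 in replicate 4 (57.4%, beside 30.5% of all). The numbers of peaks in the lists were set by the authors, the depth of the libraries is unknown, and intervals cover the sampling of genes only.

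**Figure D1:**
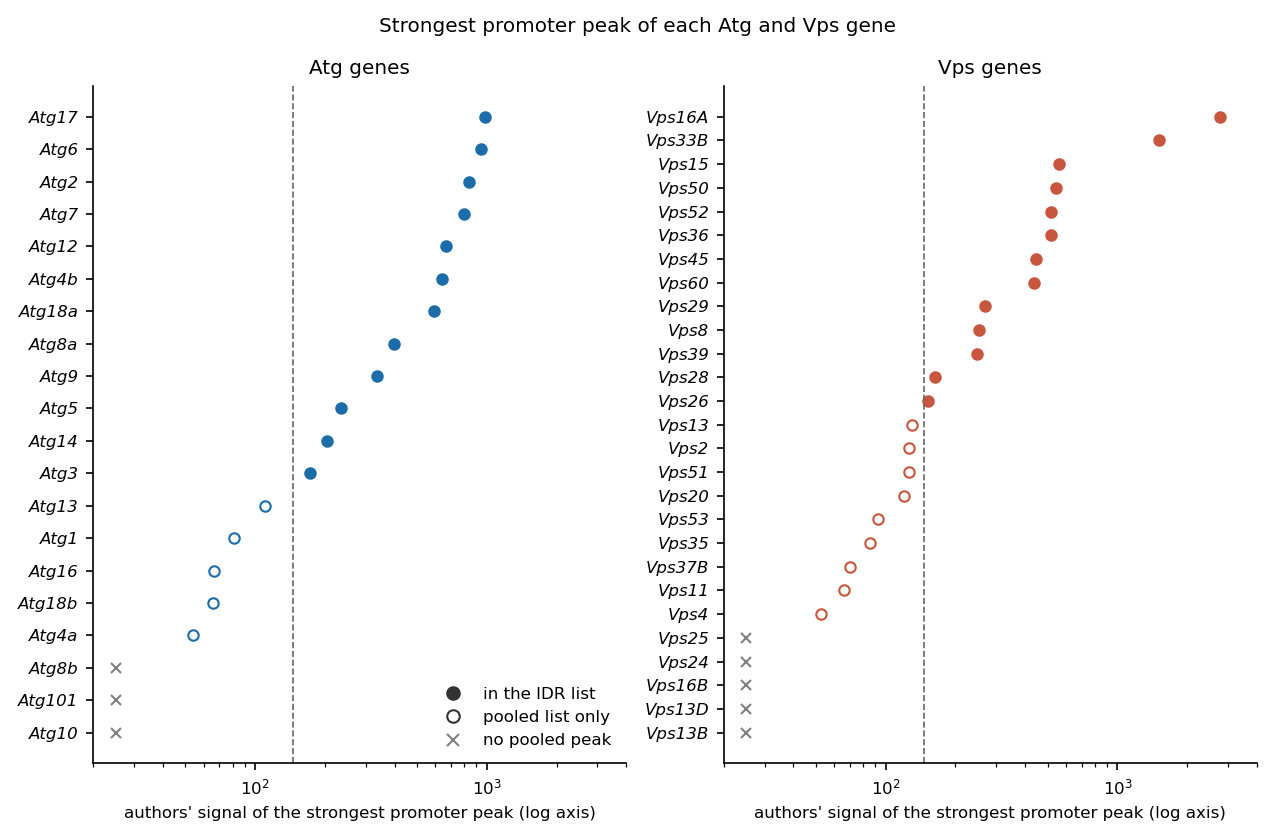
Authors' signal of the strongest promoter peak of each of the 20 Atg genes (left) and 27 Vps genes (right), on a log axis. Filled points are in the IDR list, open points only in the pooled list, crosses have no pooled promoter peak and no value, and the dashed line is the weakest IDR peak (146.3). Vps16A (2770) and Vps33B (1513) stand to the right of all other members.

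Sequence at the strongest summits was rich in A and T. The 101 bp centred on 8 summits are shown for their strength or features. For strength these are the strongest of the set (Vps16A and Vps33B) and the strongest of the Atg genes (Atg17). For features they are the highest GC content of those shown (Atg6) and the lowest (Atg2 and Vps52), and a promoter inside a gene (Atg8a). The members with a TATCGATA word within 50 bp (Vps16A and Atg14) are also shown. Each is written 5′ to 3′ on the strand of the Atg or Vps gene, in dm6 coordinates from the RefSeq copy of that genome, with matches to any of 6 searched words in capitals.
Vps16A (chr3R:9266936-9267036, plus strand): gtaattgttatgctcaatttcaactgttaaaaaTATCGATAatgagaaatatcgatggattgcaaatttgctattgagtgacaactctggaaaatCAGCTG
Vps33B (chr3R:25473297-25473397, plus strand): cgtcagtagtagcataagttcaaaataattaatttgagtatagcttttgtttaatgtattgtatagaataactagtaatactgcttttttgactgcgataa
Atg17 (chr3R:5669347-5669447, plus strand): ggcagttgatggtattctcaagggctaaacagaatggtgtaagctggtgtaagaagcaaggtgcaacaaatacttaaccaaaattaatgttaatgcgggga
Atg6 (chr3R:24050727-24050827, minus strand): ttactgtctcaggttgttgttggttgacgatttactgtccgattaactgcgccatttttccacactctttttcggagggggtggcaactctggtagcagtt
Atg2 (chr3L:2774084-2774184, plus strand): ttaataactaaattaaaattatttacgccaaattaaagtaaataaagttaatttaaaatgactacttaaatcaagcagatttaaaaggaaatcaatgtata
Atg8a (chrX:10767389-10767489, minus strand): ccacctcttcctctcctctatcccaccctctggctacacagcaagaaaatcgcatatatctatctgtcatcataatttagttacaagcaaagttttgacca
Vps52 (chr2L:5524011-5524111, minus strand): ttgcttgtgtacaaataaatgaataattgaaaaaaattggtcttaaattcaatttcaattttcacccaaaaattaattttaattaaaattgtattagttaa
Atg14 (chr3R:29116318-29116418, plus strand): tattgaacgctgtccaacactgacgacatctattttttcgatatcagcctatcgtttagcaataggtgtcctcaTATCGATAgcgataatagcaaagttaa
GC content was 17.8% at Atg2 and Vps52 and 46.5% at Atg6. Over all 25 strongest summits of these genes the median was 28.7% (range 16.8 to 47.5%). It was 33.7% over the 3495 IDR summits within 500 bp of a protein-coding TSS. The 25 are only the strongest summit of each gene, while the 3495 are all such summits. The part of this choice in the GC values was not tested. The words were searched on both strands and were CAACCCTG (taken from an earlier analysis of these peaks), TATCGATA (the core of the DNA replication-related element), GGTCACAC (the core of the M1BP motif), CACGTG (the E-box of lysosomal genes bound by Mitf), GAGAGAG (bound by Trl) and CAGCTG (another E-box). TATCGATA lay within 50 bp of 2 of 25 summits (8.0%), beside 4.06% of the 3495 promoter summits, at Vps16A and Atg14. CAGCTG lay there at 1 (Vps16A, 4.0%, beside 5.61%). The other 4 words were at 0 of 25, beside 2.98% for CAACCCTG, 2.89% for GGTCACAC, 1.52% for GAGAGAG and 0.801% for CACGTG. In 301 bp promoters, from 250 bp before to 50 bp after the first TSS, TATCGATA was found in 12 of 47 genes (25.5%), beside 9.37% of all 13945. These were Atg3, Atg7, Atg12, Atg13, Atg14, Atg17, Vps15, Vps16A, Vps36, Vps39, Vps51 and Vps53, and 9 of the 12 (75.0%) had an IDR promoter peak, beside 688 of the 1306 protein-coding genes with the word there (52.7%). Of the 47 genes, 27 have another protein-coding gene that starts on the other strand within 500 bp. TATCGATA was in 7 of these 27 promoters (25.9%), beside 17.2% of all genes with such a start. All 7 had an IDR promoter peak, beside 451 of 668. Without such a start TATCGATA was in 5 of 20, beside 638 of 10067 (6.34%). Of those 5, 2 had a peak, beside 237 of 638. The part of opposite starts in these shares was not tested. CACGTG was in 1 of the 47 promoters (Atg4a), beside 4.24% of all.

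Most of the peaks lay where another gene starts in the opposite direction. Of the 25 genes with an IDR promoter peak, 22 (88.0%) had the TSS of a second protein-coding gene on the other strand within 500 bp of their own, beside 54.9% of all protein-coding genes with a peak. Such a start is also common in the set as a whole, at 27 of 47 genes (57.4%), beside 27.8% of all protein-coding genes. Among those 27 genes, 22 had a peak (81.5%, 63.3 to 91.8%), beside 60.5% of all protein-coding genes with an opposite start. Among the 20 genes with no opposite start, 3 had a peak (15.0%, 5.24 to 36.0%), beside 19.1% of all such genes. The 3 were Atg14, Vps15 and Vps28. By family, 11 of 12 Atg genes and 11 of 15 Vps genes with an opposite start had a peak, against 1 of 8 and 2 of 12 without. With genes left out that have any other protein-coding TSS within 1000 bp, 2 of 13 members had a peak (15.4%), beside 17.4% of 7960 genes. Of the 22 shared promoters, 11 had the opposite start within 250 bp. A peak at a shared promoter belongs to both genes, and the lists do not tell for which of them it matters.

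**Figure D2:**
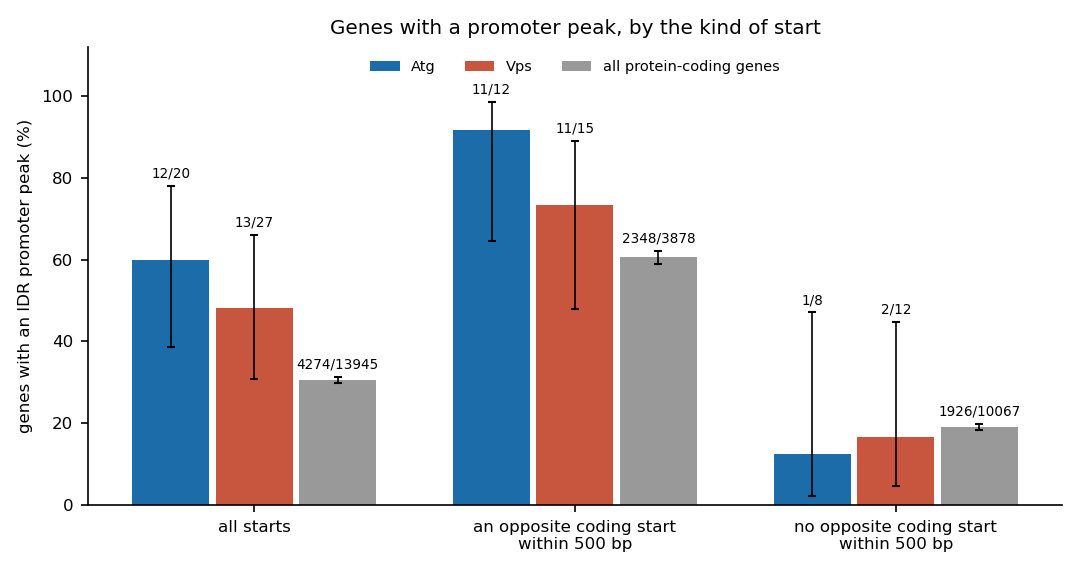
Share of genes with an IDR promoter peak among Atg genes, Vps genes and all protein-coding genes, over all starts and split by whether another protein-coding gene starts on the other strand within 500 bp. Bars are percentages, lines are 95% Wilson intervals, and the counts stand above them. Shares are high with an opposite start (91.7%, 73.3% and 60.5%) and low without (12.5%, 16.7% and 19.1%).

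The summits lay mainly between the opposed starts. At 21 of the 22 shared promoters the strongest summit of the gene was within 500 bp of both starts, and at 16 of these 21 it lay between them. No share over all protein-coding genes is given beside this count, so whether it is particular to these genes is not known. The median spacing of the starts was 246 bp, beside 245 bp for all genes with a peak at such a promoter. Of all 25 strongest summits, 21 (84.0%) were upstream of the gene's own TSS, at a median of -114 bp and from -316 to 19 bp, beside 84.0% and -112 bp over all protein-coding genes with a peak. The nearest protein-coding TSS was that of the Atg or Vps gene itself for 16 summits (64.0%, beside 72.5% of all genes with a peak) and that of the partner for 9. Those 9 were at Atg2, Atg4b, Atg7, Atg17, Vps29, Vps36, Vps39, Vps50 and Vps52. At Vps39, a HOPS subunit, the summit was 15 bp from the start of eIF1A, a translation initiation factor, and 267 bp from that of Vps39, outside the interval between the nearest starts.

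**Figure D3:**
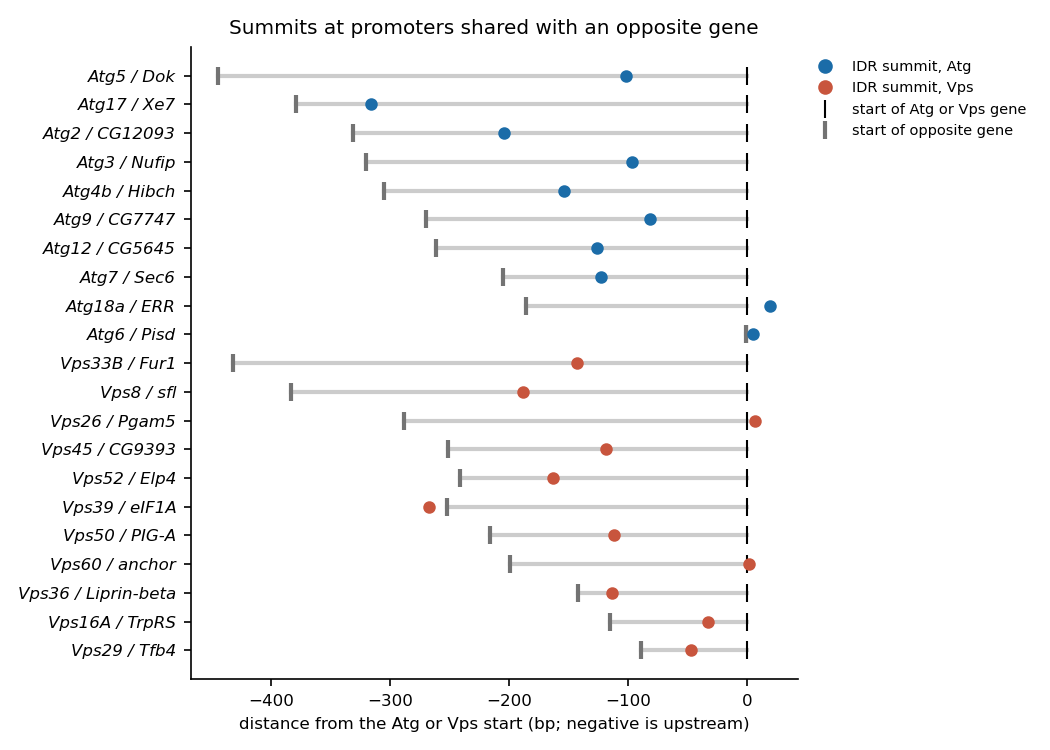
Position of the strongest IDR summit (points) and of the start of the opposite gene (grey ticks) relative to the start of the Atg or Vps gene (black ticks at 0), in bp, for the 21 genes whose summit is within 500 bp of both starts. In 16 of the 21 the summit lies between the ticks. The exceptions are Atg18a, Atg6, Vps26, Vps39 and Vps60.

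Among the Atg genes, the kinase complex that starts autophagy had a peak at 1 of its 4 genes. The groups named from here on hold few genes. Their counts stand beside the 30.6% of all protein-coding genes with an IDR promoter peak. Atg17 (FBgn0037363, 3R, 5669713 to 5679930, plus strand), the fly FIP200 and scaffold of the complex, had the strongest Atg peak, at 5669208 to 5669753, with 2 summits in the same interval. The summit 316 bp upstream had an IDR signal of 978.2 (rank 527) and the one 110 bp upstream 550.5 (rank 1122). Its signal was 324.8 in the replicate 3 list (rank 556) and 633.6 in the replicate 4 list (rank 538), so both replicates placed it near the same rank. The stronger summit was 63 bp from the start of Xe7. Atg1, the kinase, and Atg13, its regulatory partner, had promoter peaks only outside the IDR list, with pooled signals of 81.4 (rank 10904) and 110.1 (rank 7876). Atg101, which stabilises Atg13, had no promoter peak in any of the 4 lists.

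Among the groups as listed here, the class III kinase was the one in which every gene had a peak, 3 of 3 members. Atg6, the fly Beclin 1, Atg14, which directs the kinase to autophagy, and Vps15, its regulatory subunit, all had one. So did Pi3K59F, the catalytic subunit (Vps34 in yeast), whose symbol falls outside the rule. Its IDR signal of 160.1 (rank 5055) was near that of the weakest IDR peak (146.3). Atg6 (FBgn0264325, 3R, 24049180 to 24050782, minus strand) starts 1 bp from Pisd, a phosphatidylserine decarboxylase, on the other strand. Its peak at 24050597 to 24051055 had a summit 5 bp from the Atg6 start with a signal of 942.0 (rank 552), and another 197 bp upstream with 322.0 (rank 2124). In the replicates its signal was 432.3 (rank 371, replicate 3) and 490.8 (rank 785, replicate 4). Vps15 (FBgn0260935, 3R, 9240757 to 9245869, minus strand) had 558.4 at 9245817 to 9246153, with ranks 1398 and 1005 in replicates 3 and 4, and no other protein-coding start within 500 bp of the summit. Atg14 (FBgn0039636, 3R, 29116391 to 29118390, plus strand) had 204.9 at 29116169 to 29116568, at rank 6673 in replicate 3 and rank 3298 in replicate 4. Replicate 3 alone would have placed it outside its 5654 best peaks, which held for no other of the 25.

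The lipid supply group had a peak at 3 of 4 genes. Atg2, a lipid transfer protein (FBgn0044452, 3L, 2774338 to 2780677, plus strand), shared its peak at 2773926 to 2774359 with CG12093 (signal 839.7, rank 647), and the replicates gave 264.8 (rank 720, replicate 3) and 580.2 (rank 615, replicate 4). Atg18a, which binds phosphatidylinositol 3-phosphate, had 593.7 at rank 1001, on 3L at 8186626 to 8187057, in a promoter shared with the nuclear receptor gene ERR, and its replicate 4 rank of 861 was better than its replicate 3 rank of 1574. Atg9, the transmembrane lipid scramblase, had 337.1 at rank 2019, on 2R at 16294215 to 16294427, in a promoter shared with CG7747 (ranks 3300 in replicate 3 and 1808 in replicate 4). Atg18b, the paralog of Atg18a, had a pooled signal of only 65.7 (rank 13563).

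Of the 10 conjugation genes, 6 had a peak. Atg7, the E1-like enzyme that activates both ubiquitin-like proteins, had the strongest, with 794.4 (rank 695) on 2R at 18625008 to 18625318, in a 205 bp interval opposite Sec6, a subunit of the exocyst. Its signal was 238.9 in replicate 3 (rank 844) and 559.0 in replicate 4 (rank 656). Atg12, the ubiquitin-like protein joined to Atg5, had 664.7 (rank 873, 3L, 12136672 to 12136991), and its ranks in replicates 3 and 4 were 915 and 882. Atg4b, a protease that processes Atg8, had 637.4 (rank 923, 3R, 15356860 to 15357260) beside Hibch, an enzyme of valine breakdown, and ranks of 860 and 966 in replicates 3 and 4. These 3 peaks were all above the median of 296.2 over all genes with a peak. Atg5, the conjugation partner of Atg12, had 234.3 (rank 3147, X, 7323722 to 7324001) opposite the adaptor gene Dok, with ranks of 5572 in replicate 3 and 2879 in replicate 4. Atg3, the E2-like enzyme for Atg8, had 172.0 (rank 4608, 3L, 18748391 to 18748790) opposite Nufip, with ranks of 3082 and 5201. The sixth, Atg8a, is described separately. Atg16, which binds the Atg12 and Atg5 conjugate, and Atg4a had pooled signals of 66.5 and 53.9, both under the weakest IDR peak at 146.3. Atg10, the E2-like enzyme for Atg12, and Atg8b had no promoter peak in any list, and Atg10 was the 1 Atg gene of 12 with an opposite start and no IDR peak.

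Atg8a (FBgn0052672, X, 10764878 to 10768338, minus strand), the ubiquitin-like protein attached to the autophagosome membrane, has 3 annotated TSSs and was the 1 gene with IDR peaks at separate starts. The stronger peak, at 10767285 to 10767627 with a signal of 395.6, lay 133 bp upstream of a start inside the gene. The weaker, at 10768152 to 10768551 with 158.4 (rank 5143), lay 13 bp from the first start, which is 199 bp from that of BTBD9. The signal of the stronger peak was 123.2 in replicate 3 (rank 2092) and 290.5 in replicate 4 (rank 1510).

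Vps genes held the 2 strongest peaks of the set, both at tethering proteins of the Vps16 and Vps33 families. Vps16A (FBgn0285911, 3R, 9267019 to 9270224, plus strand), a core subunit of HOPS and CORVET, had a signal of 2770 at 9266752 to 9267252 (IDR rank 76), above 97.7% of the 4274 protein-coding genes with a peak. The replicates gave 1212 (rank 53, replicate 3) and 1576 (rank 97, replicate 4). Its summit lay 33 bp upstream of the Vps16A start and 82 bp from that of TrpRS, a tryptophanyl-tRNA synthetase gene that starts 115 bp away in the other direction. Vps33B (FBgn0039335, 3R, 25473490 to 25475756, plus strand), the Sec1/Munc18 protein that pairs with Vps16B, had 1513 at 25472994 to 25473586 (rank 254), opposite the furin protease gene Fur1. Its signals were 518.3 (rank 276, replicate 3) and 1009 (rank 247, replicate 4), close to the same rank in both.

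Of the HOPS and CORVET genes with a Vps symbol, 3 of 4 had a peak. Besides Vps16A these were Vps8, specific to CORVET (251.9, rank 2898, 3L, 6495484 to 6495584, opposite the heparan sulfate enzyme gene sfl), and Vps39, specific to HOPS (247.2, rank 2957, 3R, 18274587 to 18274814). In replicates 3 and 4, Vps8 had ranks 3323 and 3415 and Vps39 had ranks 2308 and 2882. The Vps39 ranks belong to different summits, at -412 bp (replicate 3) and -264 bp (replicate 4) from its start. Vps11 had a pooled signal of 65.9 (rank 13500). The fly genes for Vps18, Vps33A and Vps41 carry other symbols: car (Vps33A) had an IDR peak of 771.1, while dor (Vps18) and lt (Vps41) had pooled signals of 53.9 and 82.5. Vps45, another Sec1/Munc18 protein, for endosomal fusion, had 443.9 (rank 1453, 3R, 9563629 to 9563971) opposite CG9393, with ranks of 1644 in replicate 3 and 1434 in replicate 4.

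The retromer core had 2 of 3 genes with a peak, both below the median of 296.2 over all genes with a peak. Vps29 had 267.1 (rank 2688, 2L, 1150626 to 1150834) in an 89 bp interval opposite Tfb4, a subunit of the general factor TFIIH, with ranks of 3782 in replicate 3 and 2776 in replicate 4. Vps26 had 152.7 (rank 5373, X, 1873660 to 1874059), the weakest peak of the set and just inside the list, with ranks 4635 in replicate 3 and 6596 in replicate 4. Vps35, the scaffold of the retromer, had a pooled signal of 85.2, with ranks 6309 in replicate 3 and 15559 in replicate 4. These ranks belong to different summits, 188 bp (replicate 3) and 15 bp (replicate 4) downstream of its start. Of the GARP and EARP tethers, Vps50 and Vps52 had a peak. Vps50 had 545.5, opposite PIG-A, an enzyme of GPI anchor synthesis. Vps52 had 515.8, opposite Elp4, an Elongator subunit. In replicates 3 and 4, Vps50 (2R, 17739630 to 17739947) had ranks 1476 and 1060 and Vps52 (2L, 5523883 to 5524270) had ranks 2168 and 980. Vps51 and Vps53 had pooled signals of 126.1 and 92.3. The fly Vps54 gene, scat, had an IDR peak of 724.6.

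Of the 9 ESCRT genes with a Vps symbol, 3 had a peak (33.3%), near the 30.6% of all protein-coding genes. Over ESCRT-I, ESCRT-II and ESCRT-III with Vps4, the count was 1 of 2, 1 of 2 and 1 of 5. Vps36 of ESCRT-II had 515.2 (rank 1228, 3L, 13513030 to 13513415) opposite Liprin-beta, with ranks of 1330 in replicate 3 and 1225 in replicate 4. Vps60 of ESCRT-III had 436.6 (rank 1475, 3L, 17621446 to 17621828) opposite anchor, with ranks of 1934 and 1461. Vps28 of ESCRT-I had 163.4 (rank 4908, 2R, 8079845 to 8080244), with ranks of 4165 and 5279, and no opposite start. Vps36 and Vps60 were above the median of 296.2 over all genes with a peak, and Vps28 was below it. Among those without an IDR peak, Vps2 and Vps20 of ESCRT-III had pooled signals of 126.3 (rank 6755) and 119.7 (rank 7160). Their strongest promoter peaks had ranks 4718 and 4846 in replicate 4 and 12489 and 18730 in replicate 3. For Vps2 these ranks belong to different summits, at 192 bp (replicate 3) and -269 bp (replicate 4) from its start. For Vps20 the summits also differed, at -98 bp (replicate 3) and 89 bp (replicate 4) from its nearest start. Vps4, the ATPase that takes ESCRT-III apart, had a pooled signal of 52.8 and Vps37B of ESCRT-I had 70.1. Vps24 had 1 weak peak, at rank 29975 of the replicate 3 list, and Vps25 had none in any list. Vps4 had an opposite start (CG7772, 431 bp away), as did 1 other of the 5 genes of the ESCRT-III group, Vps60.

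None of the 3 Vps13 genes, which encode large bridge-like lipid transfer proteins, had an IDR promoter peak (0 of 3), although all 3 had an opposite start. Vps13, opposite boca, a chaperone of the endoplasmic reticulum, had a pooled signal of 129.8 at rank 6536, the highest of any member outside the IDR list. Vps13B, opposite the initiation factor gene eIF2Balpha, had no promoter peak in any list. Vps13D had 1 at 5 bp from its start in the replicate 4 list (signal 101.9, rank 5213), and none within 500 bp in the replicate 3 and pooled lists.

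Paralogs that differ by the last letter of the symbol were compared. In 4 pairs, 1 gene had an IDR promoter peak and the other had none. The Vps13 genes, with a peak at 0 of 3, and the Vps33 pair, with a peak at both Vps33B (1513) and car, the fly Vps33A (771.1), did not have this pattern. In the 4 pairs the signals were 637.4 for Atg4b against a pooled value of 53.9 for Atg4a, 593.7 for Atg18a against 65.7 for Atg18b, 395.6 for Atg8a against no peak for Atg8b, and 2770 for Vps16A against no peak for Vps16B. In all 4 pairs the gene with the peak had an opposite start within 500 bp of one of its TSSs and its paralog had none. At Atg8a the peak at the shared start was the weaker of its peaks.

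Peak strength had overlapping ranges in the families, and no test was run. The strongest IDR promoter peak had a median signal of 615.6 in the 12 Atg genes with a peak (range 172.0 to 978.2) and 443.9 in the 13 Vps genes (152.7 to 2770), beside 296.2 over all 4274 protein-coding genes with one. A signal above 296.2 was found in 9 Atg and 8 Vps genes. Among genes with an opposite start and a peak, the median was 637.4 in Atg genes, 443.9 in Vps genes and 348.2 over all protein-coding genes, and without an opposite start the signals were 204.9 (Atg14), 558.4 (Vps15) and 163.4 (Vps28), beside a median of 255.9 over all. Relative to the median of all genes with a peak in the same list, the Vps median was 1.50 times as high in the IDR list, 1.49 in the 5654 best replicate 4 peaks and 1.07 in the 5654 best replicate 3 peaks. The Atg median was 2.08, 2.15 and 1.94 times as high in these lists.

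Summits and ranks of the 25 genes were compared between the replicate lists. The genes were chosen on a list made from both replicates, so closeness is partly built in. At 24 of the 25 genes both replicate lists had a summit within 100 bp of the IDR summit (beside 92.6% of all protein-coding genes with a peak), with a median shift of 24 bp in replicate 3 and 3 bp in replicate 4. The exception was Vps39, with 145 bp in replicate 3 and 3 bp in replicate 4. Ranks in the replicate lists had a Spearman correlation of 0.924 across these 25 genes, a description of points that all come from the same pair of libraries and were chosen on a list made from both. The worse rank was a median of 1.36 times the better, and at most 2.21 times, at Vps52. Replicate 4 gave the better rank for 17 genes and replicate 3 for 8. For these rank comparisons no values over all protein-coding genes are given. Within the 5654 best peaks of both replicates were 23 of the 25, all but Atg14 and Vps26. The 23 were 48.9% of the 47 genes, beside 23.8% of all protein-coding genes. Outside the IDR list, Vps51 was among the 5654 best of replicate 3, and Vps2, Vps20 and Vps13D among those of replicate 4.

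**Figure D4:**
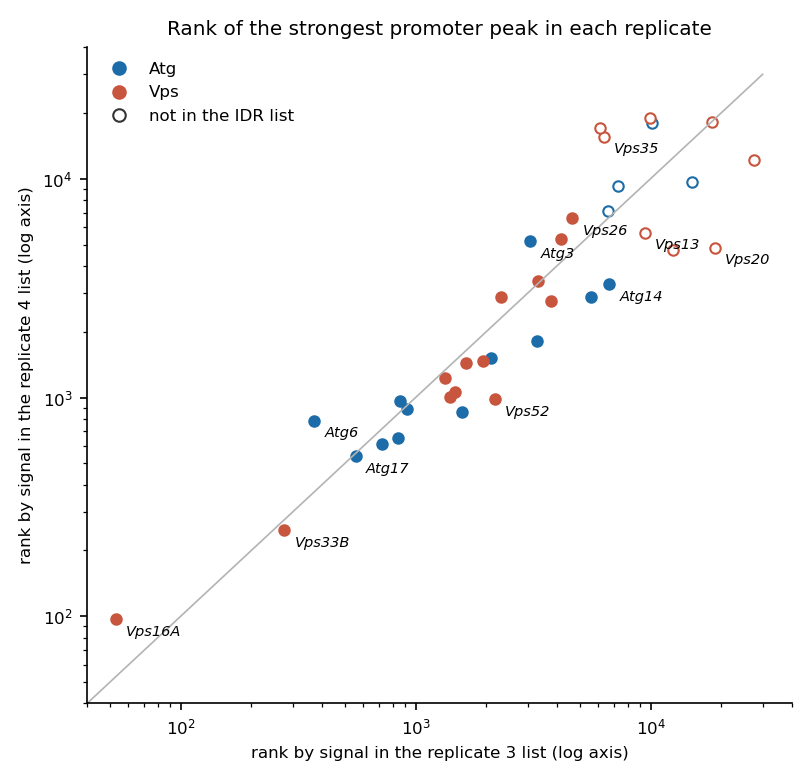
Rank by signal of the strongest promoter peak of each Atg (blue) and Vps (red) gene in the replicate 3 list and the replicate 4 list, on log axes, with equal ranks on the grey line. Genes in the IDR list (filled) lie near the line, led by Vps16A at ranks 53 and 97, and genes outside it (open) scatter more widely. The filled genes were chosen on a list made from both replicates. The strongest promoter peak was taken in each list by itself, so the ranks of a gene can belong to different summits. Genes with a peak in fewer than both lists are not drawn.

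The same routes hold many genes under other symbols. Of a list of 35 such genes, 20 had an IDR promoter peak (57.1%), beside 30.6% of all protein-coding genes. With an opposite start within 500 bp it was 12 of 14 (85.7%, beside 60.5%), and without one 8 of 21 (38.1%, beside 19.1%). The endosomal genes ALiX (2336, an ESCRT partner), Mon1 (1960, which activates Rab7 on endosomes), Rab5 (1426, the early endosome GTPase) and Rbsn-5 (780.2, a Rab5 effector) had the strongest. Autophagy genes with a peak included Uvrag (556.8, a class III kinase subunit), Snap29 (549.5, a SNARE of autophagosome fusion) and Epg5 (336.4, a tether of that fusion). Mitf, the transcription factor of lysosomal genes, had 271.7. Syx17, the SNARE of the autophagosome, and ref(2)P, the fly p62 cargo receptor, had pooled signals of 121.6 and 106.7 only, and TSG101 and shrb of the ESCRT complexes had 119.8 and 133.8. Rubicon, another autophagy gene of the list, had a pooled signal of 141.9 and no IDR promoter peak.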

How the data were processed

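Peaks of CG14711-eGFP came from 2 samples of 1 group. Per the deposited text records, the authors called peaks on each replicate and on both pooled, with a control alignment, and derived the IDR list from those lists, on dm6. No caller or version and no IDR cutoff is given in the sources used here. Signal values, as deposited, were compared within lists, and between the IDR and pooled lists, which give the same signal for the IDR promoter peaks of these genes. Of the deposited columns, −log10 q was not used. The control was not analysed here. The IDR list holds exactly the 5654 pooled peaks of highest signal, so being in it and passing a signal of 146.3 are the same here.

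Genes and TSSs came from the Ensembl annotation, release 115, assembly BDGP6.54, with the coordinates of dm6, on the 6 main chromosome arms, leaving out transposable elements. Sequence came from the RefSeq copy. The summit was the start plus the offset in column 10. Where several peaks were in reach of a gene, the strongest was used. Older symbols were matched through RefSeq synonyms. Vps37A found no match, and the list of 35 further genes leaves out Fip200, which is Atg17. Assignment was tested on simulated data and gave the right call for 200 of 200 made-up genes. Python 3.11.15 and NumPy 2.4.6 were used.

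The rule for named genes was to account for all 47. Members, lists and words were chosen with earlier results of these data known, and no test was run: genes of 2 samples are not replicates. Alternatives were the window, the list, the nearest TSS, overlap by 1 bp, isolated genes and the search distance.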

Additional observations from a re-analysis of the deposited data

How the results depend on the processing

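The count of 25 genes with a promoter peak (12 Atg and 13 Vps) depended on the list and on neighbouring genes. With the whole pooled list it was 39, and 22 for Vps genes. Counting only summits nearest to the gene's own TSS gave 8 of 27 Vps genes (29.6%) and 9 of 20 Atg genes (45%). This setting gave 17 of the 47 genes (36.2%), beside 22.9% of all protein-coding genes. With other protein-coding starts within 1000 bp barred, 1 Atg gene, 1 Vps gene and 2 in all had a peak, of fewer genes counted. Without replicate 3 or without replicate 4 the counts were 11 to 12 Atg genes, 14 to 15 Vps genes and 25 to 27 in all. Windows of 250 and 1000 bp, the 2827 strongest IDR peaks and overlap with a TSS kept each count within 1.5 times. With the 2827 strongest IDR peaks, 18 of the 47 genes had one (38.3%), beside 17.8% of all protein-coding genes. With the opposite start within 250 bp, shared promoters numbered 11 and not 22. The median signal over that of all genes with a peak was 1.74 for the whole set, 1.47 with a 1000 bp window, and 1.25 to 1.51 with a replicate left out. With a replicate left out it was 1.07 to 1.49 for Vps genes and 1.94 to 2.15 for Atg genes. The cause was not tested. Within 100 bp, TATCGATA was near 4 of 25 summits (16.0%, beside 8.64% of all promoter summits) and CAGCTG near 3 (12.0%, beside 13.3%). The depth of the libraries is unknown, so no floor can be given for the absence of a peak. No paired analysis was possible because the series has 1 group.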

Other observations

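Some IDR summits lay inside the genes, more than 500 bp from any of their TSSs. There were 8, all in introns, in 6 of 20 Atg genes (30%) and 0 of 27 Vps genes, beside 8.40% of all protein-coding genes. The median gene length was 3404.5 bp for Atg genes, 2714 bp for Vps genes and 2166 bp over all. The part of gene length in these counts was not tested, nor were the families tested against each other. Atg1, whose promoter had no IDR peak, held 3 of them on 3L, at 12792954 to 12793353 (signal 222.5, 11963 bp from its start), 12802453 to 12802852 (207.6) and 12803567 to 12803966 (171.1). Atg16, also without an IDR promoter peak, had 387.8 at 29830991 to 29831237 on 3R, which is above its pooled promoter signal of 66.5. Atg5 had 302.2 at 7319147 to 7319459 on X and Atg17 had 253.8 at 5672678 to 5672880 on 3R. The intronic peaks of Atg7 (645.7) and Atg18b (184.4) lay within 500 bp of starts of other genes, CG5335 and snRNA:U4:39B.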
